A study of Mus musculus with 6 samples.

Results

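The matricellular genes of cardiac fibrosis were examined in the hearts of hSRY-ON and hSRY-OFF pups. They were Postn, Spp1, Fn1, Tnc, Thbs1, Thbs2, Thbs4, Sparc, Ctgf and Dcn, and every array probe that carried one of these symbols was taken. This gave 16 probes of 9 genes, among the 25697 probes and 18138 gene symbols of the deposited table. Fn1 was not analysed here, because no probe with that symbol was in the table used.

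Total RNA from the hearts of 3 hSRY-ON and 3 hSRY-OFF mice was hybridized to 1 bead array each, in a single colour. All 6 were male and at postnatal day 6 (P6), with the strain given as FVB in the labels and as FVB/N in the methods. Each group is described as a biological triplicate. The hSRY-ON pups carried a single copy of the Signalox-hSRY transgene at the H11 locus, recombined in the early embryo by Cre protein from the oocyte of a Ddx4-Cre mother, so that the ubiquitous CAG promoter drove FLAG-tagged human SRY together with EGFP. The hSRY-ON pups chosen for the arrays had not inherited Ddx4-Cre. The methods define hSRY-OFF as Signalox-hSRY mice without recombination, in which the same promoter drives DsRed2, but elsewhere the study names littermates without the transgene as its controls, so the genotype of the control hearts is not certain.

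Matricellular proteins are secreted into the extracellular matrix, where they act on cells and growth factors and contribute little to the scaffold itself. Most are made during heart development, are scarce in the healthy adult myocardium and return with injury, pressure overload and fibrosis. The connective tissue growth factor encoded by Ctgf (Ccn2), the thrombospondins, tenascin-C, periostin and osteopontin are typical of such remodelling. Decorin, from Dcn, binds collagen fibrils and TGF-beta, and SPARC, a collagen-binding protein, takes part in collagen processing.

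Intensities are given after background correction and quantile normalization on a log2 scale, and a positive log2 fold change marks a higher value in hSRY-ON. A probe was taken as above background at a detection p-value under 0.05 and was tested when that held on at least 3 of the 6 arrays. Of the 16 matricellular probes, 11 probes of 6 genes were tested, and all 11 were above background on all 6 arrays. At an adjusted p under 0.05 (limma, adjusted over all 12970 tested probes), 6 of the 11 were higher and 1 was lower in hSRY-ON. By gene, 4 of the 6 tested genes had a higher probe and 1 had a lower probe. Of the 6 higher probes 3 were of Tnc, and probes of the same gene in the same hearts are not independent. Of all tested probes, 13.8% were higher and 13.7% were lower, 27.5% together. After normalization the groups did not overlap in 10 of the 11 matricellular probes, against 45.2% of all tested probes. In the deposited intensities they did not overlap in 7 of the 11, and the share of all tested probes in those intensities is not given here. The median log2 fold change of the 11 was 0.67, against -0.0046 over all tested probes. These genes were chosen with results of the same arrays known, and the figures describe them without a test of the group. The balance over all probes depended on the scaling between arrays. Of the differentially expressed probes, 50.1% were higher in hSRY-ON with quantile normalization, 65.7% after aligning the arrays on the median of the detected probes and 38.5% without normalization between arrays, where the median of all tested probes was -0.12.

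**Figure D1:**
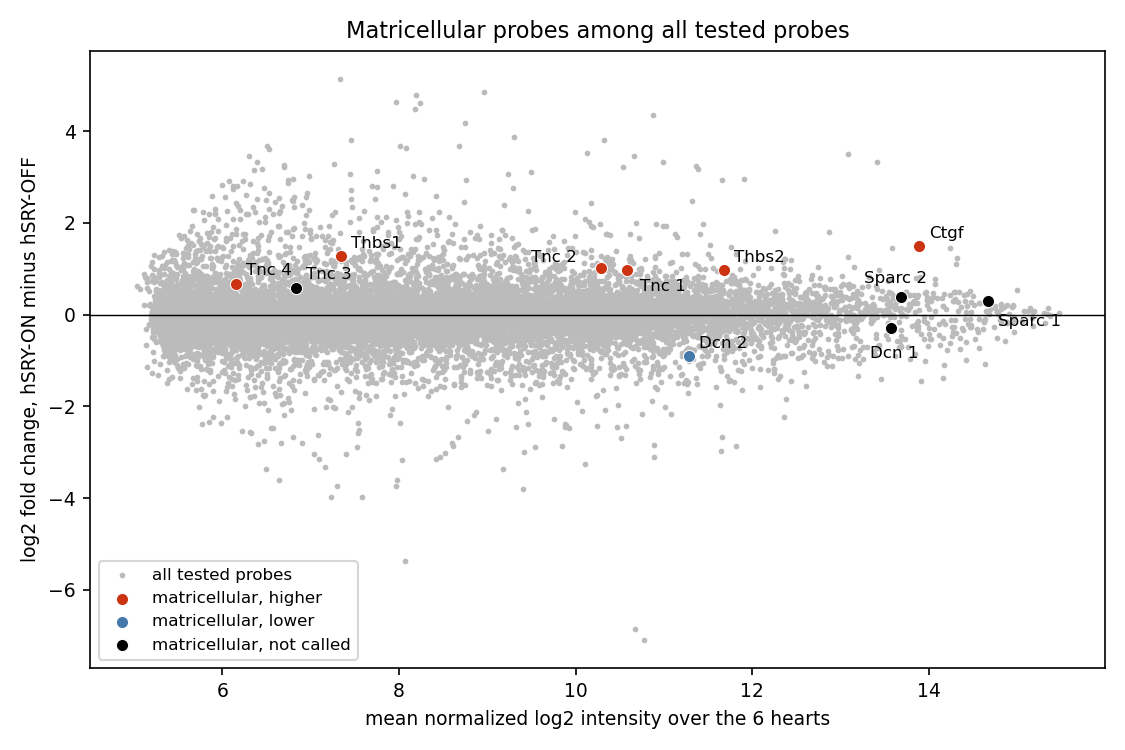
Each point is a tested probe, with its mean normalized log2 intensity over the 6 hearts on the horizontal axis and its log2 fold change, hSRY-ON minus hSRY-OFF, on the vertical axis. The 11 matricellular probes are coloured by their call, and they run from -0.90 for the second probe of Dcn to 1.50 for Ctgf.

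Between 47.2% and 51.3% of the probes were above background on each array. The dimmest array was hSRY-OFF heart 3, with a median intensity of 156 against 167 to 201 on the others. Precision is limited by the number of arrays. With 3 hearts against 3, the smallest p that an exact two-sided permutation test can give is 0.1. All 9 cardiomyocyte marker genes with a probe (Myh6, Tnni3, Actc1, Myl2, Myl3, Mybpc3, Ryr2, Pln and Nkx2-5) were above background, as the label of the tissue requires. No heart was separated into its cell types, so fewer cells of a type and less RNA per cell cannot be told apart in any value below.

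Among the 11 tested probes, that of Ctgf had the largest increase. It encodes a secreted protein of the CCN family that is induced by TGF-beta and promotes the production of matrix. The normalized log2 intensity of its only probe (ILMN_2909150) was 12.95, 13.12 and 13.35 in hSRY-OFF hearts 1, 2 and 3, and 15.01, 14.62 and 14.28 in hSRY-ON hearts 1, 2 and 3. All hSRY-ON hearts lay above all hSRY-OFF hearts, as they did in the deposited intensities, at 17683 to 31383 against 8391 to 11134. The log2 fold change was 1.50 (standard error 0.20, adjusted p = 0.0020 from limma), a 2.82-fold difference with a 95% interval of 1.02 to 1.97 on the log2 scale. By size, this was rank 270 among the increases of the 12970 tested probes.

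Thbs1 and Thbs2 encode the trimeric thrombospondins 1 and 2, which inhibit the growth of vessels. Thrombospondin-1 also activates latent TGF-beta. The probe of Thbs1 (ILMN_2659151) was at 6.69, 6.42 and 7.0 in hSRY-OFF hearts 1, 2 and 3 and at 8.31, 7.77 and 7.85 in hSRY-ON hearts 1, 2 and 3. The lowest hSRY-ON heart was thus above the highest hSRY-OFF heart, and the log2 fold change was 1.27 (standard error 0.20, adjusted p = 0.0036), or 2.41-fold. Without background correction it was 0.69 and still passed the test (adjusted p = 0.0018). In these hearts the probe was dim, at 218 to 264 in the deposited intensities of hSRY-OFF and 343 to 420 in those of hSRY-ON.

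The probe of Thbs2 (ILMN_2635229) gave the closest replicates among the 6 probes that were higher. It was at 11.02, 11.22 and 11.35 in hSRY-OFF hearts 1, 2 and 3 and at 12.09, 12.17 and 12.24 in hSRY-ON hearts 1, 2 and 3. The standard deviations were 0.17 and 0.07 (n = 3 each), far smaller than the difference of 0.97 on the log2 scale (standard error 0.13, adjusted p = 0.0018). Thbs2 was 1.96-fold higher in hSRY-ON. Thbs4 encodes a pentameric thrombospondin that is induced in the pressure-overloaded heart. Its only probe (ILMN_2631882) did not exceed background on any of the 6 arrays, with deposited intensities of 122 to 162 in hSRY-OFF, against 138 to 142 in hSRY-ON, so no change can be given for it.

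Tnc encodes tenascin-C, a hexameric glycoprotein that loosens the adhesion of cells to the matrix. It had 6 probes, which the table does not assign to transcripts, and they are numbered here from 1 to 6. Probe 1 (ILMN_2463181) was at 10.19, 9.65 and 10.47 in hSRY-OFF hearts 1, 2 and 3 and at 11.22, 10.61 and 11.37 in hSRY-ON hearts 1, 2 and 3. Probe 2 (ILMN_2463180) was at 9.74, 9.52 and 10.11 in hSRY-OFF and at 10.96, 10.42 and 11.02 in hSRY-ON, in the same order of hearts. In both probes heart 2 was the lowest of its group, and the hSRY-ON hearts lay above the hSRY-OFF hearts. The log2 fold change was 0.96 (standard error 0.27, adjusted p = 0.033) for probe 1 and 1.01 (standard error 0.21, adjusted p = 0.011) for probe 2, or 1.95-fold and 2.02-fold.

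Probes 3 and 4 of Tnc gave smaller differences. Probe 4 (ILMN_1236724) was higher by 0.67 (standard error 0.18, adjusted p = 0.029), with 5.61 to 6.02 in hSRY-OFF, against 6.23 to 6.79 in hSRY-ON. Its deposited intensities overlapped, at 173 to 223 against 207 to 233. Probe 3 (ILMN_2485085) was the single tested matricellular probe whose groups overlapped after normalization, at 6.21 to 6.89 against 6.72 to 7.37. Its log2 fold change was 0.59 (95% interval 0.05 to 1.12, adjusted p = 0.097), which did not pass. Probe 5 was above background on 2 hSRY-ON arrays and on no hSRY-OFF array, and probe 6 on none. The calls differed in how far they depended on single hearts. Probe 2 passed with each heart left out in turn, with adjusted p of 0.0083 to 0.043. Probe 1 did not pass without hSRY-OFF heart 1 (adjusted p = 0.073), hSRY-OFF heart 2 (0.086), hSRY-ON heart 1 (0.096) or hSRY-ON heart 3 (0.092). Probe 4 did not pass without hSRY-OFF heart 1 (0.10), hSRY-OFF heart 2 (0.074), hSRY-ON heart 1 (0.068) or hSRY-ON heart 3 (0.068). Probe 4 also did not pass without background correction, where its log2 fold change was 0.23 (adjusted p = 0.071).

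**Figure D2:**
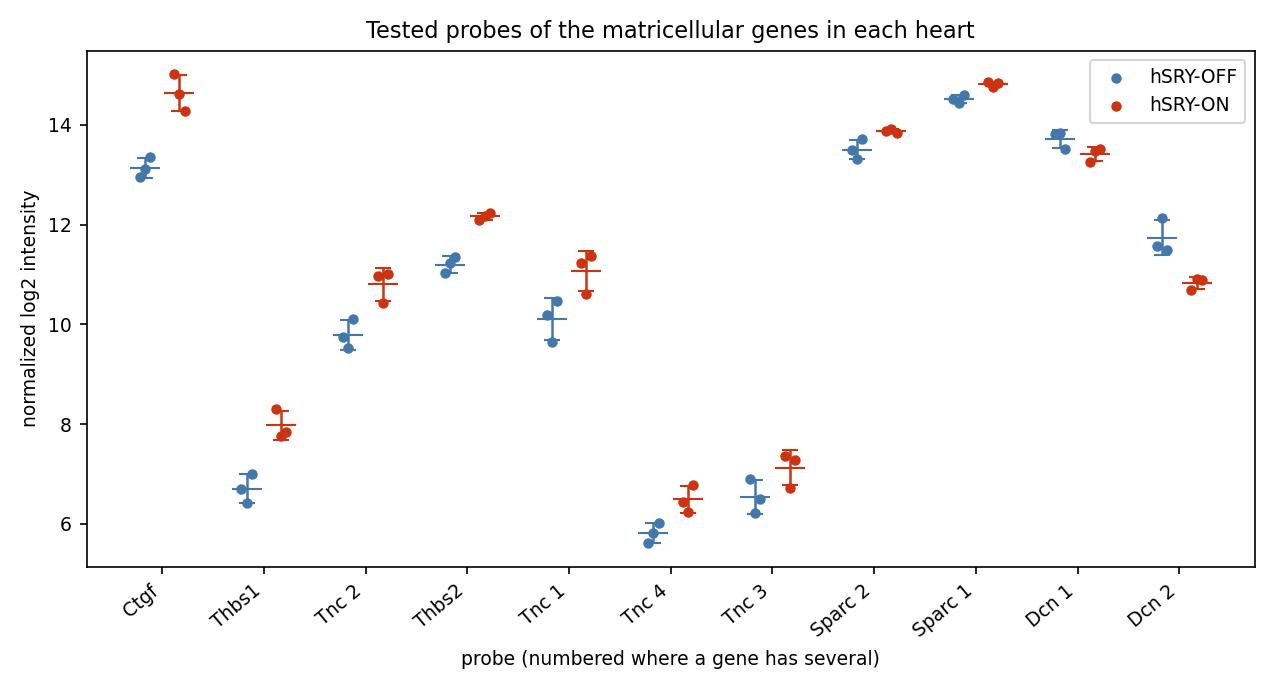
Points are the normalized log2 intensities of the 3 hSRY-OFF and 3 hSRY-ON hearts for the 11 tested probes, with the mean and the standard deviation of each group as bars, ordered by log2 fold change. Ctgf, Thbs1 and Thbs2 and probes 1 and 2 of Tnc have every hSRY-ON heart above every hSRY-OFF heart, and both probes of Dcn have every hSRY-ON heart below.

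Dcn was the gene that went the other way. Probe 2 of Dcn (ILMN_2596346) was at 11.57, 12.14 and 11.49 in hSRY-OFF hearts 1, 2 and 3 and at 10.69, 10.91 and 10.89 in hSRY-ON hearts 1, 2 and 3. Every hSRY-ON heart was below every hSRY-OFF heart, and the log2 fold change was -0.90 (standard error 0.19, adjusted p = 0.011), which is 1.87-fold lower. Probe 1 (ILMN_2747959) was at 13.81, 13.84 and 13.52 in hSRY-OFF and at 13.26, 13.48 and 13.51 in hSRY-ON, in the same order of hearts. There hSRY-OFF heart 3 and hSRY-ON heart 3 nearly met, the deposited intensities overlapped at 9571 to 19115 against 9324 to 10934, and the log2 fold change of -0.30 did not pass (95% interval -0.63 to 0.03, adjusted p = 0.15). The 2 probes of Dcn therefore had the same sign and different sizes, and the difference between them was not tested.

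The fibroblast is the main source of decorin in the heart, and its other markers were set beside Dcn. Counts in this and later lists can be set beside all tested probes, of which 13.8% were higher and 13.7% were lower. Of 14 tested fibroblast probes 5 were higher and 1 was lower in hSRY-ON, and the summed normalized intensity of the list was 22816 to 25881 in hSRY-OFF, against 29896 to 35926 in hSRY-ON. Tcf21, a transcription factor of cardiac fibroblasts, was higher by 0.76 (adjusted p = 0.014), and Gsn and all 3 probes of Fbln2 were higher by 0.60 to 1.002. Pdgfra, a receptor on the same cells, was at a log2 fold change of 0.41 that did not pass (adjusted p = 0.14), and Pi16 was lower, at -0.54 (adjusted p = 0.045). The call of Pi16 was lost without hSRY-OFF heart 1, hSRY-OFF heart 2, hSRY-ON heart 1 or hSRY-ON heart 3, where 0 probes of the list were lower. Without hSRY-OFF heart 3 or hSRY-ON heart 2 the list had 1 lower probe. The call was also lost without normalization between arrays, with median scaling and with scaling in the manner of TCC. It was lost without the probe filter and with the replicate block as well (adjusted p = 0.055 to 0.16 in these 5 fits). The 5 higher probes became 2 without hSRY-OFF heart 1, 3 without hSRY-OFF heart 3 or hSRY-ON heart 1, and 1 without normalization between arrays. Ddr2 was above background on no array. The part of these markers in the level of any matricellular gene was not tested.

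Sparc was bright in every heart. Probe 1 of Sparc (ILMN_3136561) was at 14.51, 14.44 and 14.60 in hSRY-OFF hearts 1, 2 and 3 and at 14.85, 14.76 and 14.83 in hSRY-ON hearts 1, 2 and 3. Probe 2 (ILMN_3059326) was at 13.49, 13.31 and 13.71 in hSRY-OFF and at 13.88, 13.92 and 13.83 in hSRY-ON, in the same order. The groups did not overlap after normalization in either probe, but the log2 fold changes were small. They were 0.30 (95% interval 0.04 to 0.56, adjusted p = 0.087) and 0.37 (95% interval 0.06 to 0.69, adjusted p = 0.079), so neither passed. In the deposited intensities probe 1 overlapped between the groups, at 21506 to 28441 in hSRY-OFF, against 26905 to 27978 in hSRY-ON. Both probes passed without background correction, with an intensity trend in the moderated test and with array weights (adjusted p between 0.0051 and 0.035), with log2 fold changes of 0.30 to 0.40. Without normalization between arrays the log2 fold changes were 0.10 and 0.17 (adjusted p = 0.91 and 0.82).

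Postn and Spp1, which encode periostin and osteopontin, were near background. Periostin is made by activated fibroblasts and valve cells and promotes the cross-linking of collagen. The only probe of Postn (ILMN_1216882) had deposited intensities of 175, 172 and 138 in hSRY-OFF hearts 1, 2 and 3 and of 136, 150 and 179 in hSRY-ON hearts 1, 2 and 3. It was above background in hSRY-ON heart 3 alone, the groups overlapped, and it was not tested. A single dim probe says nothing of transcripts that it does not match.

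Osteopontin, a ligand of integrins and CD44, is made by macrophages and by fibroblasts in the injured heart. The probe of Spp1 (ILMN_2690603) had deposited intensities of 151, 157 and 130 in hSRY-OFF hearts 1, 2 and 3 and of 159, 236 and 172 in hSRY-ON hearts 1, 2 and 3. It was above background in hSRY-ON hearts 2 and 3 and in no hSRY-OFF heart, and all hSRY-ON hearts lay above the hSRY-OFF hearts. Each hSRY-OFF array was set to the lowest normalized signal among its probes above background, or to the probe's own signal where that was higher. On this bound the mean of the 3 hSRY-ON hearts was at least 1.25-fold higher. Those lowest signals were 5.33 to 5.56, and hSRY-ON hearts 1, 2 and 3 were at 5.02, 6.71 and 5.53. The bound thus rested on hSRY-ON heart 2, and hSRY-ON heart 1 was not above background. Spp1 was detected on too few arrays to be tested, and without the probe filter its adjusted p was 0.095. Markers of macrophages moved in the same direction. Of 15 tested macrophage probes 10 passed as higher and 0 as lower in hSRY-ON, and their median log2 fold change was 0.97. Among the 10 were Gpnmb and Cd163, which no hSRY-OFF array detected and which entered the test through the hSRY-ON arrays alone. Of the 13 probes detected in both groups 8 were higher, with a median of 0.93. Under the 17 alternatives 0 probes of the list were lower. The count of higher probes was 8 to 10 under the processing changes and 7 to 9 with a heart left out, with 7 without hSRY-ON heart 1. The summed normalized intensity of the list was 3883 to 4328 in hSRY-OFF, against 8647 to 9220 in hSRY-ON. Csf1r, the receptor for macrophage colony-stimulating factor, was higher by 1.30 on one probe (adjusted p = 0.00089) and at 0.40 on the other, which did not pass. Cd68 was higher by 0.99 (adjusted p = 0.0036). Gpnmb was at least 7.36-fold higher, a bound given without a test. Of the defining markers, Emr1 had 1 tested probe, with a log2 fold change of -0.21 that did not pass, and Itgam was above background on no array. The part of these markers in the level of Spp1 was not tested.

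**Figure D3:**
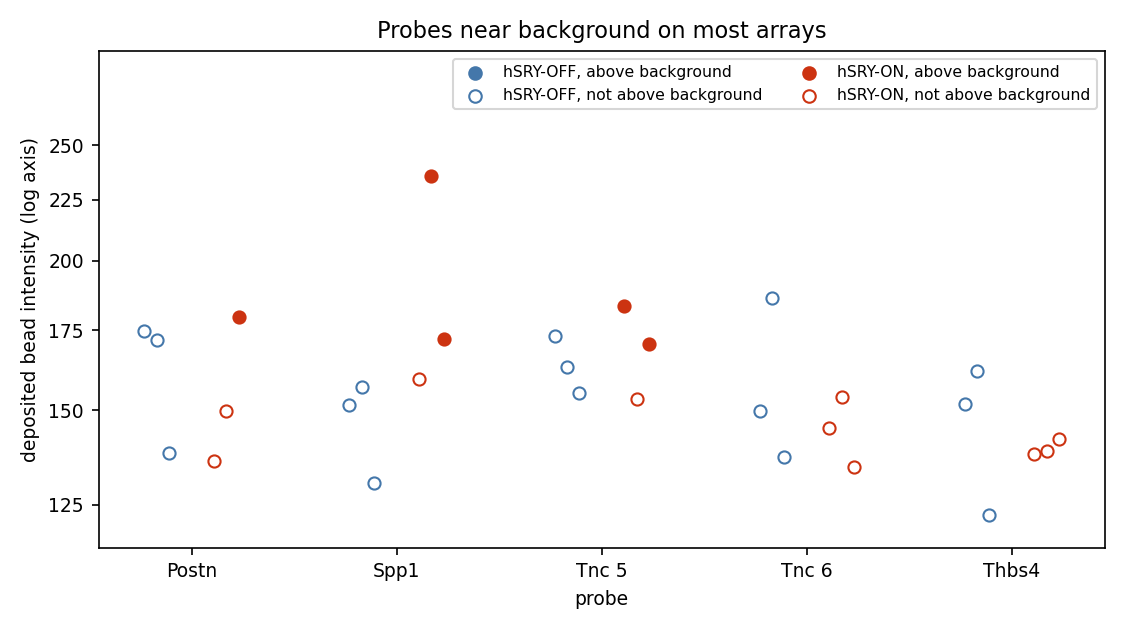
Points are the deposited bead intensities, on a log axis, of the 5 matricellular probes that were not tested, filled where the probe was above background on that array. Filled points occur in hSRY-ON hearts only, and Spp1 has 2 of them, at 236 and 172.

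The promoters of the genes were looked up in the RefSeq annotation of GRCm38.p6, which gave 250 bases before and 50 bases after a start site for 6 of the 10 genes. The arrays measure transcripts and not binding, so the sequences describe the genes only. The first listed promoter is shown for Thbs2 and Tnc, which were both higher, for Sparc, which did not pass, and for Postn, the gene in which the core bound by SRY and SOX proteins was found. Capitals mark matches on either strand to AACAAT (the SOX and SRY core), CATTCC (the TEAD core), CAGACA (the core of the CAGA box bound by SMAD proteins) and TATAAA (the TATA box). The Thbs2 sequence is at chr17:14694213-14694512 on the minus strand, that of Tnc at chr4:64046966-64047265 on the minus strand, that of Sparc at chr11:55420031-55420330 on the minus strand and that of Postn at chr3:54359017-54359316 on the plus strand. Each reads 5′ to 3′ along its gene.
Thbs2: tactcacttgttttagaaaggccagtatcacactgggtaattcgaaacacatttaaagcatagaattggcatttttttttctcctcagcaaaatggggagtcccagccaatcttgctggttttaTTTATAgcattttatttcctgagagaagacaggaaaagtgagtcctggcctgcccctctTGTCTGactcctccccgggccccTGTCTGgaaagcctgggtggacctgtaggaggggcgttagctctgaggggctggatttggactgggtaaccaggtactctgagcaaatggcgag
Tnc: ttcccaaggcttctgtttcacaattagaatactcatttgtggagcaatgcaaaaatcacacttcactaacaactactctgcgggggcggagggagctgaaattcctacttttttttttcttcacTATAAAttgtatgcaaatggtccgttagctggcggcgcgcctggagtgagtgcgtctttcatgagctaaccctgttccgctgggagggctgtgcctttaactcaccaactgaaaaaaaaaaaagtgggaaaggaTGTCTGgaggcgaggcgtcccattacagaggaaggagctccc
Sparc: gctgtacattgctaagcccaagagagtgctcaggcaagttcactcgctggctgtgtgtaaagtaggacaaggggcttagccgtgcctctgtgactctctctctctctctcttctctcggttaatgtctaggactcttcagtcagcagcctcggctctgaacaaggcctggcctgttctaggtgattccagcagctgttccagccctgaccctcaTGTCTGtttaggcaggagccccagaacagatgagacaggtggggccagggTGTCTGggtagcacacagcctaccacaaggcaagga
Postn: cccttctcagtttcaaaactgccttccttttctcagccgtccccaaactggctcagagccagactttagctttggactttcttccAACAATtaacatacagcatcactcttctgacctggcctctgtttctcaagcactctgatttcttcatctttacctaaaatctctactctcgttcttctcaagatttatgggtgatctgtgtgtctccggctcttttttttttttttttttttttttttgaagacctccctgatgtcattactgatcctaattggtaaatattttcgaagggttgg

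Among all promoters listed for the 6 genes AACAAT occurred once, in that of Postn shown here, with its first base at position -165 from the start site. Of 32851 mouse promoters of this length 10.7% hold it. CAGACA was read on the opposite strand at -67 and -44 in Thbs2, at 9 in Tnc and at -36 and 15 in Sparc, and 21.0% of all promoters hold it. Both genes that were higher and the gene that did not pass thus carried this core. TATAAA was at -126 in Tnc on the gene strand and at -126 in Thbs2 on the opposite strand (13.6% of all promoters), and CATTCC was in none of the 4 sequences (14.7%). A match is a run of letters and not evidence of binding.

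The 11 log2 fold changes were recomputed under 17 alternatives, of which 11 changed a processing step and 6 left out a heart. None of the 11 changed sign. Ctgf, Thbs1, Thbs2, probe 2 of Tnc and probe 2 of Dcn, 5 probes in all, passed under every alternative. The share of all tested probes that did so is not given here. Ctgf stayed between 1.31 and 1.69, Thbs2 between 0.86 and 1.07, and probe 2 of Dcn between -1.02 and -0.70.

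**Figure D4:**
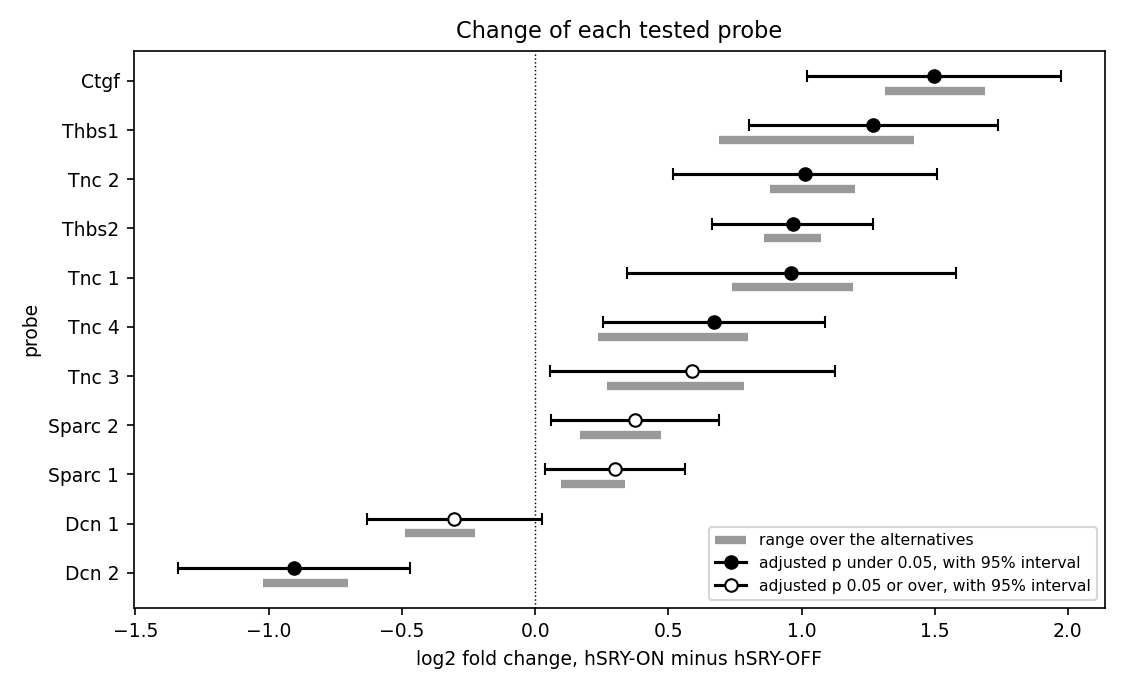
Points are the log2 fold changes of the 11 tested probes, hSRY-ON minus hSRY-OFF, with 95% intervals from limma, filled where the adjusted p was under 0.05, and grey bars give the range over the 17 alternatives. The grey bar of Thbs1 reaches down to 0.69 and that of probe 4 of Tnc to 0.23, both without background correction.

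Genes of the same families were examined next. The list held 18 genes, those being other members of the CCN, thrombospondin, tenascin and SPARC families together with Tgfbi, which shares the fasciclin domains of periostin. Of the 18 genes, 15 had a probe and 10 a tested probe. Of their 17 tested probes 6 were higher, 1 was lower and 10 did not pass, with a median log2 fold change of 0.49. Spock2, which encodes the proteoglycan testican-2, had the largest increase, at 3.02 (standard error 0.13, adjusted p = 2.7e-05), from 5.43 to 5.54 in hSRY-OFF to 8.31 to 8.66 in hSRY-ON. Among the hSRY-OFF arrays, 2 of 3 detected it. Smoc1 was higher by 1.16 (adjusted p = 0.0058), and the CCN gene Wisp1 by 0.73 and 0.49 on its 2 probes. Fstl1 and a probe of Tgfbi were higher by 0.59 and 0.74. Other relatives of the members did not pass. Cyr61 (Ccn1), the closest CCN relative of Ctgf, was at 0.64 and 0.08 (adjusted p = 0.13 and 0.88), the 3 probes of Thbs3 at 0.12 to 0.37, and those of the tenascin gene Tnxb at -0.40 to -0.29. Sparcl1, a relative of Sparc, was the 1 lower probe, at -0.65 (adjusted p = 0.021). When only probes above background on every array were kept, 0 probes of the list were lower, so Sparcl1 was not called there. Without normalization between arrays 2 of the probes were higher and 0 were lower, and with array weights 10 were higher. Sparcl1 did not pass without background correction, without normalization between arrays, with median scaling or with the replicate block, nor without hSRY-OFF heart 1, hSRY-OFF heart 2, hSRY-ON heart 1 or hSRY-ON heart 2, and 3 probes were lower without hSRY-ON heart 3.

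Other small leucine-rich proteoglycans were set beside Dcn. Of 7 tested probes, each of a different gene, 2 were higher and 1 was lower, and the median log2 fold change was -0.09. Bgn, which encodes biglycan, the closest relative of decorin, was at 13.72, 13.61 and 13.72 in hSRY-OFF hearts 1, 2 and 3 and at 14.50, 14.47 and 14.38 in hSRY-ON hearts 1, 2 and 3. It was higher by 0.76 (standard error 0.11, adjusted p = 0.0025), where Dcn had negative values. Without normalization between arrays Bgn was at 0.52 and did not pass (adjusted p = 0.28). Fmod was higher by 0.45 (adjusted p = 0.036) and did not pass with any of the 6 hearts left out. Podn, which encodes podocan, was lower, at -1.95 (standard error 0.28, adjusted p = 0.0025), and 2 of the 3 hSRY-ON arrays detected it. Lum, the lumican gene, was at -0.43 and did not pass (adjusted p = 0.091). The list had 1 higher probe without each of the 6 hearts in turn except hSRY-ON heart 2, where it had 2. Fmod did not pass there, so they were not the same 2 probes. Without hSRY-ON heart 3, 2 probes were lower.

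Receptors of matricellular proteins were higher or did not pass. Of 12 tested probes 6 were higher and 0 lower, with a median log2 fold change of 0.51. Sdc4, the syndecan-4 gene, was higher by 1.46 (standard error 0.13, adjusted p = 0.00038). Cd47, the thrombospondin-1 receptor, was at 10.49, 10.47 and 10.69 in hSRY-OFF hearts 1, 2 and 3 and at 12.18, 11.98 and 11.45 in hSRY-ON hearts 1, 2 and 3, and was higher by 1.32 (standard error 0.20, adjusted p = 0.0027). Itgav, an integrin chain that binds osteopontin, periostin and tenascin-C, was higher by 0.81, and Cd44 by 0.67. Stab1, which takes up SPARC, was higher by 0.65, and 1 of the 2 probes of Itgb1 by 0.55. The other 5 probes of Cd44 were near background, and the only probe of Cd36, another thrombospondin receptor, was above background on no array. Without normalization between arrays 2 of these probes were higher. Without the probe filter 1 probe was lower.

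Genes of TGF-beta supply and response were tested because the factor induces several members. Of 18 tested probes 7 were higher and 0 lower, with a median log2 fold change of 0.31. Tgfb2 was higher by 0.83 (adjusted p = 0.035), Tgfb3 by 0.77 (0.034) and Tgfb1 by 0.54 (0.047). Ltbp3, which encodes a protein that holds latent TGF-beta in the matrix, was higher by 0.71 and 0.39 on its 2 probes, and Tgfbr1 and Skil by 0.51 each. The target gene Smad7 was above background on no array. These calls lay close to the threshold. Of the 7 probes called, the count became 0 without hSRY-OFF heart 1, 2 without hSRY-OFF heart 2, 1 without hSRY-ON heart 1, 4 without hSRY-ON heart 2 and 2 without hSRY-ON heart 3. It was 4 when no probe was filtered out, 0 without normalization between arrays and 1 in the fit blocked by replicate number.

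Genes of myofibroblasts, the contractile fibroblasts of scars, were the last of these lists. Of 13 tested probes 8 were higher and 0 lower, with a median log2 fold change of 0.56. Tagln was higher by 1.81 (standard error 0.34, adjusted p = 0.0077) and Lox, which encodes lysyl oxidase, by 1.11 (adjusted p = 0.012). All 4 probes of Acta2, smooth muscle actin, were higher, by 0.53 to 1.48. Eln and Loxl1 were higher by 0.66 and 0.56. Cnn1 and Cthrc1 were above background on no array. The fibrillar collagens did not pass, with Col1a1 at 0.05 and the 2 probes of Col3a1 at -0.60 and -0.79 (adjusted p = 0.79, 0.076 and 0.10). A probe of Col3a1 passed as lower without background correction, with a background offset of 50, without normalization between arrays, with an intensity trend, without hSRY-OFF heart 3 and without hSRY-ON heart 3, and both passed as lower with array weights. The count of 8 became 5 without hSRY-OFF heart 1, without hSRY-ON heart 1 or without normalization between arrays. Markers of smooth muscle and pericytes, which also use Acta2 and Tagln, went the other way, with 0 of 11 tested probes higher and 5 lower, and Smtn was lower on all 3 of its probes, at -1.52 to -1.24 on the log2 scale. The summed normalized intensity of that list was 26848 to 29448 in hSRY-OFF, against 19911 to 20516 in hSRY-ON. Without hSRY-ON heart 1, 3 of the probes were lower.

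**Figure D5:**
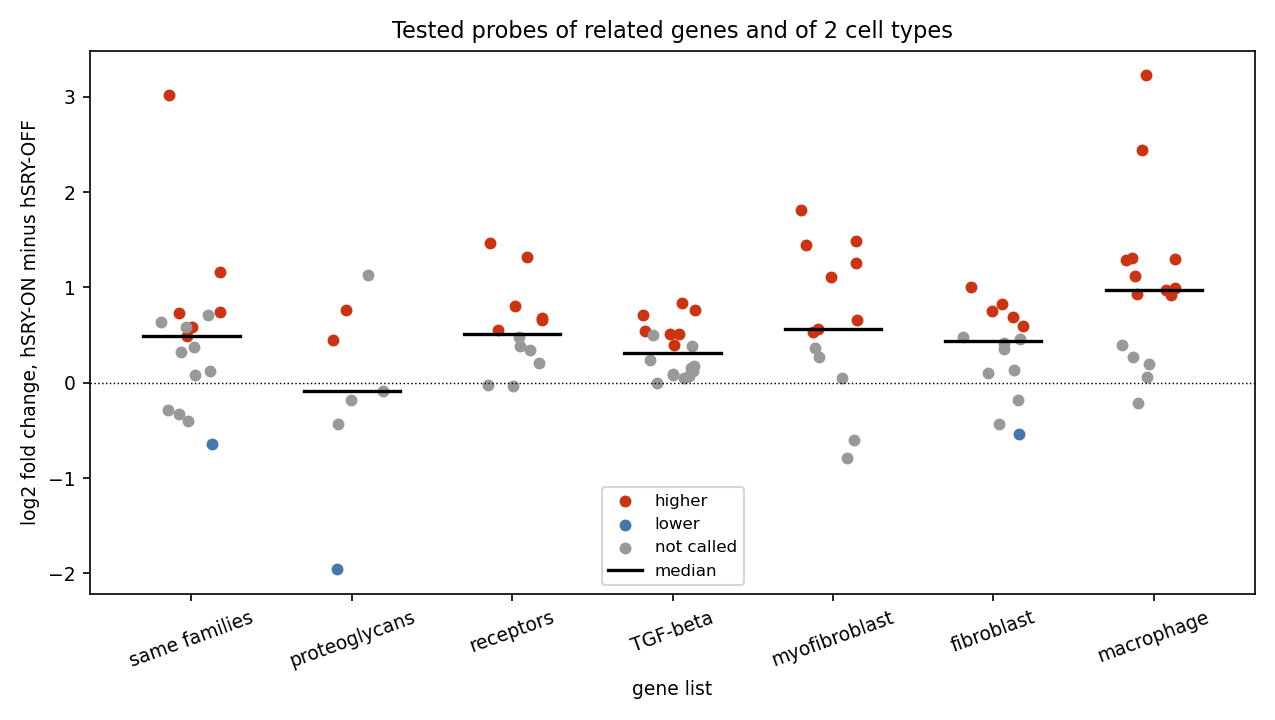
Each point is the log2 fold change, hSRY-ON minus hSRY-OFF, of a tested probe in 5 lists of related genes and in the fibroblast and macrophage markers, coloured by its call, with the median of each list as a line. The medians are 0.49, -0.09, 0.51, 0.31, 0.56, 0.44 and 0.97 from left to right.

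Markers of other cells that make or store these proteins were counted as well. Over all tested probes 13.8% were higher and 13.7% were lower, and counts in lists this short were not tested against those shares. Platelets store thrombospondin-1, and of 7 tested platelet and megakaryocyte probes 0 were higher or lower, with summed intensities of 408 to 1196 in hSRY-OFF, against 492 to 897 in hSRY-ON. Of 9 tested probes of epicardium, valve and tendon, which express Postn, Tnc and Thbs4, 1 passed, that of Mkx, which no hSRY-OFF array detected and which entered the test through the hSRY-ON arrays alone, and of the 8 probes detected in both groups 0 passed. Of 9 endothelial probes 2 were higher and 4 were lower, and the list as a whole had its median at -0.24 on the log2 scale. Of 11 cardiomyocyte probes 1 was higher and 6 were lower. The summed intensities of the cardiomyocyte list were 160165 to 175360 in hSRY-OFF, against 141188 to 152571 in hSRY-ON. Skeletal muscle markers had 4 of 6 tested probes lower, thymus and T cell markers 1 of 3 and erythroid markers 1 of 4, with 0 higher in each. Adipocyte markers had 2 of 5 higher, and the hepatocyte list had 1 tested probe, of Ttr, which also entered the test through the hSRY-ON arrays alone and was at least 3.87-fold higher, while Alb was above background on no array. Sox9, with the 1 tested probe of the cartilage and bone list, did not pass. These small counts depended on single hearts. Of the endothelial probes 1 was higher without hSRY-OFF heart 1, hSRY-OFF heart 3, hSRY-ON heart 1 or hSRY-ON heart 2, and 2 were lower without hSRY-OFF heart 1, hSRY-OFF heart 2 or hSRY-ON heart 1. The adipocyte count became 0 without hSRY-OFF heart 1, hSRY-OFF heart 2 or hSRY-ON heart 1, and 1 without hSRY-ON heart 2 or 3. The T cell call was lost without any heart other than hSRY-OFF heart 3, and 2 platelet probes were lower without hSRY-OFF heart 2. The part of these cells in the levels of the matricellular genes was not tested.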

How the data were processed

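Total RNA from 3 hSRY-ON and 3 hSRY-OFF hearts was hybridized by the study to MouseRef-8 v2.0 BeadChips. The deposited values are bead intensities averaged for each probe by the authors, not normalized, with a detection p-value deposited beside them that was set against the negative-control beads. The bead software is not given in the sources used here. Groups and replicate numbers came from the labels, and no pair of arrays was identical.

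Intensities were corrected and quantile normalized as in neqc of limma 3.58.1 (R 4.3.3; offset 16). Probes with a detection p under 0.05 on at least 3 of 6 arrays were fitted with lmFit and eBayes, with group as the only term, two-sided, with Benjamini-Hochberg adjustment over all tested probes. The methods name TCC, which was replaced here by limma and a scaling in its manner. The steps were tested on simulated data. At a true log2 fold change of 1 in either direction, 83 of 88 changed probes passed with the right sign. At 2, 112 of 112 did. A further 21 probes that had not been changed also passed at an adjusted p under 0.05. Only 200 of the 14162 simulated probes were changed, whereas 27.5% of the tested probes were called in the hearts. The simulated rates therefore need not hold for the hearts. They were not split by intensity, so they cannot be read for dim probes such as that of Thbs1. The matricellular genes and the 5 related and 13 marker lists were chosen with earlier results of these data known. Within related lists, the called probes with the largest change and family relatives of members are named, and others such as collagens after their values were seen. Motifs were searched on both strands. Plots used matplotlib 3.10.9 under Python 3.11.15.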

Additional observations from a re-analysis of the deposited data

How the results depend on the processing

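The number of differentially expressed probes over the whole array was 3567 and became 1897 without normalization between arrays, while with each heart left out in turn it ranged from 2206, without hSRY-OFF heart 1, to 3669. It was 2255 without hSRY-ON heart 1. The 6 matricellular probes that were higher became 4 to 7 with each heart left out and 5 to 8 under the other alternatives, with 4 without hSRY-OFF heart 1, hSRY-OFF heart 2, hSRY-ON heart 1 or hSRY-ON heart 3. The 1 lower probe remained 1, except that 2 were lower with an intensity trend and with array weights, where probe 1 of Dcn also passed. With the replicate number as a block, 7 matricellular probes were higher, 1 was lower and 2842 probes passed over the array. Probe 3 of Tnc passed there (adjusted p = 0.034). Hearts with the same number did not deviate together, with correlations of -0.02, 0.04 and -0.07. Among the hSRY-OFF hearts, only heart 2 correlated best with the hSRY-ON heart of its own number. With 3 hearts in a group, these values cannot settle whether the numbers pair the hearts. Probe 1 of Tnc did not pass without the probe filter (adjusted p = 0.059), and probe 4 without normalization between arrays (0.23). Slide as a block was not run, since the columns name no slide. Signal over background limits Postn, Spp1, Thbs4 and probes 5 and 6 of Tnc, which have at most a bound.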
